A study of Zea mays with 4 samples.

Results

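Beta-expansins were followed on 4 maize arrays through every probe set whose single annotated gene has a name of the form expB followed by a number, whether or not the probe set was detected. The rule found 10 probe sets for 7 genes among 17621 probe sets other than controls: expB3 (LOC541908), expB4 (LOC541909), expB5 (LOC541910, 2 probe sets), expB6 (LOC542566), expB7 (LOC542649), expB8 (LOC542496, 3 probe sets) and EXPB9 (LOC542106). On the Affymetrix maize array, several short oligonucleotides matched to the same transcript form a probe set and together give 1 value. The reference gene table holds 11 genes with such a name, and the other 4 (EXPB1, expB2, EXPB10 and EXPB11) had no probe set named for them in the annotation used.

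Expansins are secreted proteins that loosen the plant cell wall at acid pH without cutting its polymers, which lets growing cells extend under turgor. The beta class is unusually large in grasses, where it acts on walls rich in arabinoxylan. Some beta-expansins are made in vegetative organs, and others, the group-1 grass pollen allergens, are released by pollen. EXPB9 belongs to this pollen class.

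The arrays compared F98902 (2 arrays), a maize line that the labels describe as poorly digestible, with Cm484 (2 arrays), a line they describe as well digestible. All plants were untreated greenhouse plants (days of 14 h at 22 °C, nights of 10 h at 20 °C), taken at flowering, 24 h before ovulation. The labels name stem under growth and root under RNA extraction, so the tissue is not settled. Each kind of digestibility is represented by 1 line, so digestibility and every other feature of the lines cannot be told apart. Nothing in the labels says that replicates were separate plants, and p-values therefore cover only the spread between these arrays, which may be technical.

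Values are GCRMA expression values on a log2 scale, and 5 was taken as the detection value. On each array, between 54.8% and 55.2% of probe sets reached it. The F98902 arrays stood apart from each other in the 5 detected controls for 5′ ends of housekeeping transcripts: the median deviation of an array from the average of the remaining arrays was 0.86 on F98902 replicate 1, -0.83 on F98902 replicate 2, 0.26 on Cm484 replicate 1 and -0.22 on Cm484 replicate 2 (log2). For 3′ ends the same measure lay between -0.13 and 0.12. A call that was lost without one of these arrays is given with that value.

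Beta-expansin signal above detection was seen in Cm484, and in F98902 for 1 probe set on 1 array. On both Cm484 arrays, 4 probe sets for 3 genes (expB6, expB7 and expB8) reached the detection value, and none of the 10 did so on both F98902 arrays. These 4 were the members that could be tested, since the comparison kept probe sets at 5 or more on at least 2 arrays, and all 4 were lower in F98902 at an adjusted p under 0.05. Across all 10131 probe sets kept, 34.9% were called, 17.1% higher in Cm484 and 17.7% higher in F98902. Of the 4, 3 passed the filter through Cm484 alone and could only be lower in F98902, so the count of 4 is no support for a shared direction. For members higher in F98902, limma gave a count of 0, and also 0 at an unadjusted p under 0.05, in the fit with and without the filter. With no filter, 3 members were called, all higher in Cm484, where 8.75% of 17621 probe sets were called in that direction and 17.6% in either. In bulk RNA, fewer cells that express a gene and less of its RNA per cell cannot be told apart.

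expB7 showed the clearest separation of the lines. Its probe set read 3.24 and 3.37 in F98902, against 10.22 and 9.77 in Cm484. Both F98902 arrays were below detection, both Cm484 arrays were far above it, and 6.39 log2 units separated the nearest arrays of the lines. The difference, F98902 minus Cm484, was -6.68 ± 0.21 (SE, limma adjusted p = 5.64e-05), with a 95% interval of -7.21 to -6.16. Because the F98902 values lie below detection they give only a bound, and expB7 was at least 31.8-fold higher in Cm484.

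expB6 followed the same direction. Its probe set read 4.43 and 4.16 in F98902, against 9.44 and 8.35 in Cm484. Both F98902 arrays were again below detection, and the lines did not overlap. The difference was -4.60 ± 0.38 (SE, limma adjusted p = 0.000831), with a 95% interval of -5.56 to -3.65. expB6 was at least 14.9-fold higher in Cm484, or at least 21.7-fold from Cm484 replicate 1 alone and at least 10.2-fold from Cm484 replicate 2 alone.

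**Figure D1:**
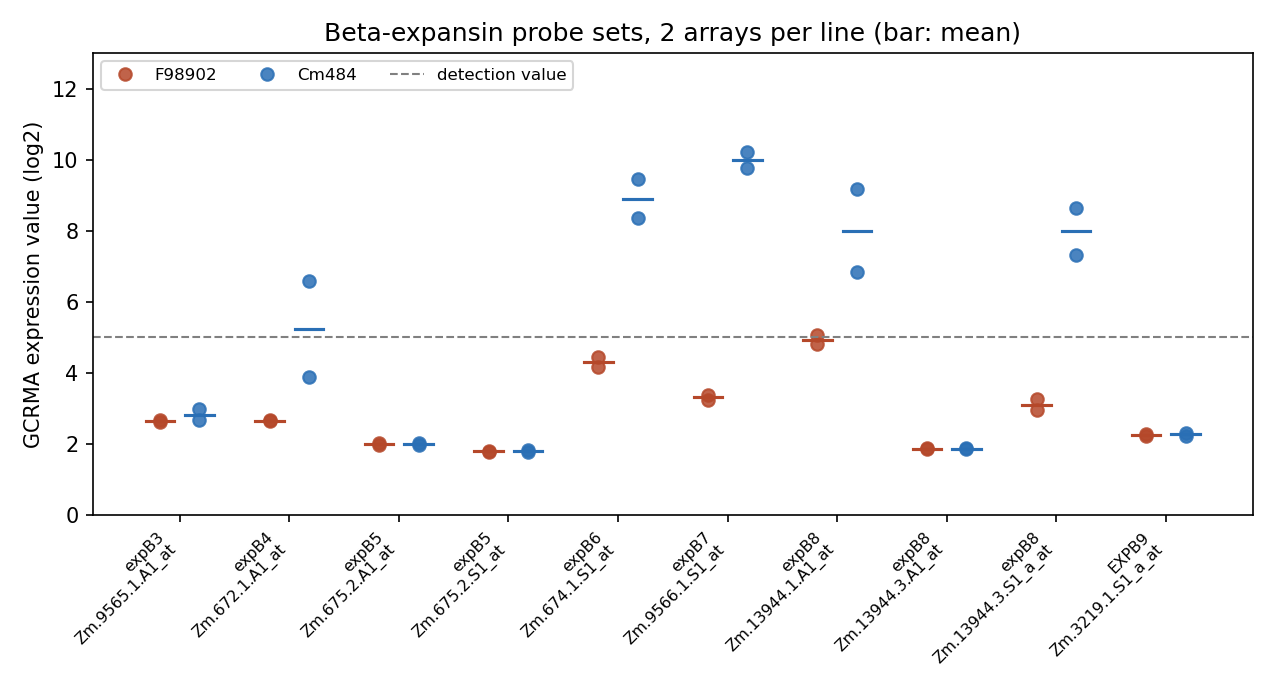
GCRMA expression value (log2, vertical axis) of each beta-expansin probe set (horizontal axis) on the 2 F98902 arrays (left of each pair, red) and the 2 Cm484 arrays (right, blue). Points are arrays, bars are means and the dashed line is the detection value of 5. Cm484 points stand above the line for expB6, expB7 and 2 probe sets of expB8 on both arrays and for expB4 on 1 array, while 1 F98902 point, at 5.05 for expB8, reaches it.

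expB8 was represented by 3 probe sets, named here by the ends of their identifiers, and they did not give 1 answer. The probe set 3.S1_a_at, whose ending _a_at marks probes shared by alternative transcripts of a gene, read 3.25 and 2.94 in F98902, against 8.63 and 7.32 in Cm484. Its lines did not overlap, with a difference of -4.89 ± 0.44 (SE, limma adjusted p = 0.00114), and the signal was at least 7.88-fold higher in Cm484. That bound was 12.4-fold from Cm484 replicate 1 alone and 5.01-fold from Cm484 replicate 2 alone.

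The second probe set of expB8, 1.A1_at, was the only member to reach detection on an F98902 array. It read 5.05 and 4.81 in F98902, against 9.16 and 6.83 in Cm484. The lines did not overlap, but the Cm484 arrays lay 2.33 apart. The difference was -3.06 ± 0.74 (SE, limma adjusted p = 0.0286), with a 95% interval of -4.93 to -1.20. This call was lost at differences of about the same size: -3.18 without F98902 replicate 1 (adjusted p = 0.0844), -2.94 without F98902 replicate 2 (adjusted p = 0.109) and -3.06 with no filter (adjusted p = 0.126). It was kept at -1.90 when Cm484 replicate 1 was left out (adjusted p = 0.00892) and at -4.23 when Cm484 replicate 2 was (adjusted p = 0.00146). With 1 array left out, the spread comes from the line that still has 2 arrays, and the lone array is assumed to vary like them.

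The third, 3.A1_at, read 1.85 and 1.87 in F98902, against 1.87 and 1.84 in Cm484. It was below detection on every array and its lines overlapped, so the same gene has a probe set with no measured difference beside the 2 that differed.

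expB4 was the member just outside the filter. Its probe set read 2.66 and 2.64 in F98902, against 6.58 and 3.89 in Cm484. Both Cm484 arrays lay above both F98902 arrays, but only Cm484 replicate 1 reached the detection value. With no filter, the difference of -2.58 ± 1.03 (SE) was not called (limma adjusted p = 0.219), and no fold is given since 1 of the Cm484 arrays was below detection.

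With the expB8 probe set 3.A1_at, those of EXPB9, expB3 and expB5 made up 5 that were below detection on every array. They read between 1.78 and 2.97, and their lines overlapped in every case. Of the 7141 probe sets below detection on every array, 9.63% had both Cm484 arrays above both F98902 arrays and 7.51% had the opposite. EXPB9 read 2.22 and 2.27 in F98902, against 2.29 and 2.23 in Cm484. The expB3 probe set read 2.62 and 2.68 in F98902, against 2.97 and 2.67 in Cm484, the widest range of the 5 at 0.35. Those of expB5 differed by less: 2.A1_at read 1.97 and 2.01 in F98902, against 2.01 and 1.97 in Cm484, and 2.S1_at read 1.78 and 1.80 in F98902, against 1.81 and 1.78 in Cm484. For 3 genes (expB3, expB5 and EXPB9) no probe set therefore gave a level above detection in either line. A value this low does not show that a transcript is absent, only that the probe set gave no signal above the detection value.

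Over all 10 probe sets, detected or not, both Cm484 arrays lay above both F98902 arrays for 5, the lines overlapped for 5, and none had the opposite order. Across all 17621 probe sets, 26% had both Cm484 arrays above both F98902 arrays and 23.9% had the opposite. The median difference over the 10 was -1.38, beside -0.00 over all probe sets. Leaving out Cm484 replicate 1 gave -0.63, and leaving out Cm484 replicate 2 gave -2.12. No member lay near -1.38, which falls between expB3 at -0.17 and expB4 at -2.58, so the median describes no single probe set. Of the 10 members, 50% were below detection on every array, beside 40.5% of all probe sets. Signal on both Cm484 arrays with both F98902 arrays under detection was found for 3 members, and for 2.29% of all probe sets.

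Set against the other probe sets kept, the expB7 difference was among the widest towards Cm484: 33 of 10131 (0.326%) lay as far or farther in that direction, itself included. For expB6 this share was 1.14%, and for the expB8 probe sets 3.S1_a_at and 1.A1_at it was 0.987% and 2.8%. These shares use the measured values also below detection and describe where the members lie.

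**Figure D2:**
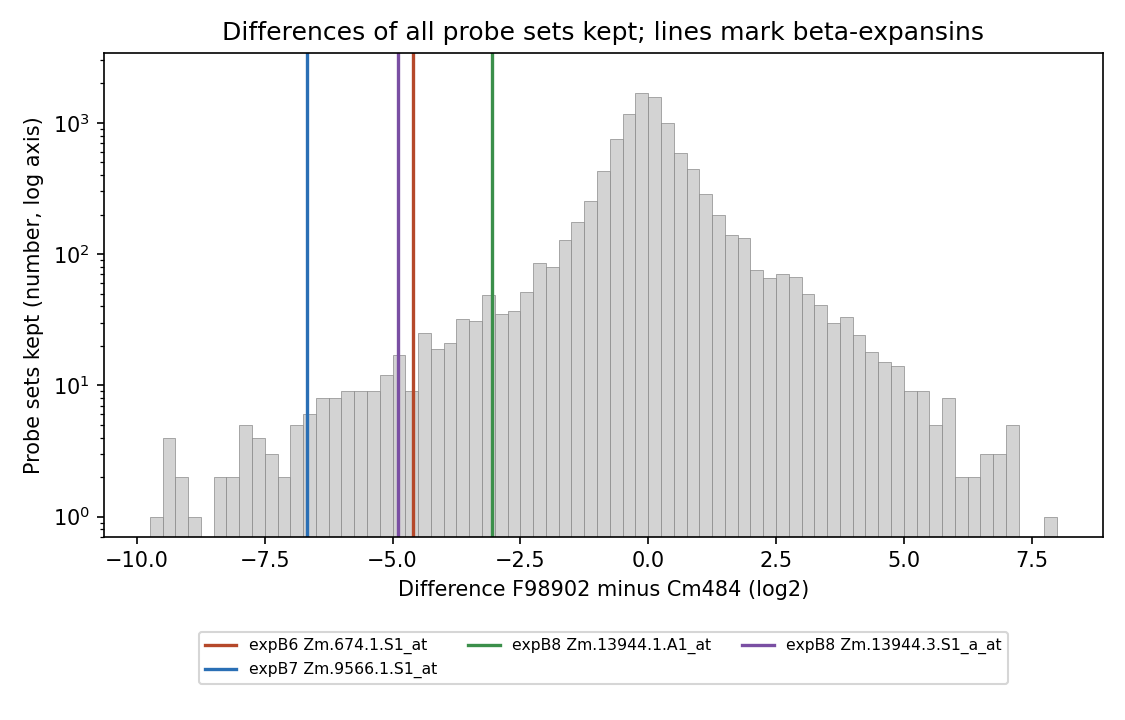
Number of probe sets kept (vertical log axis) by difference F98902 minus Cm484 (log2, horizontal axis, bins of 0.25). Coloured lines mark the 4 beta-expansin probe sets kept, which lie at -6.68 for expB7, -4.89 and -3.06 for expB8 and -4.60 for expB6, all on the Cm484 side.

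Some genes of this family are near neighbours in the B73 reference assembly Zm-B73-REFERENCE-NAM-5.0, and gene order in F98902 and Cm484 was not analysed here. expB7 and expB6 lie on 1 chromosome with 2 protein-coding genes between them, and expB2, which had no named probe set, lies 2 protein-coding genes from expB7. expB8 and expB5 have 1 protein-coding gene between them, and EXPB9 lies 27 from expB5. expB3 shares the chromosome of expB7 but is 1808 protein-coding genes away, and expB4 shares its chromosome with no other gene of the family. The neighbours expB7 and expB6 both reached the detection value of 5 on both Cm484 arrays and on neither F98902 array. For expB6 this depends on the detection value, since it read 4.43 and 4.16 in F98902. Of the neighbours expB8 and expB5, only expB8 had a probe set above detection.

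The members with signal varied more between the Cm484 arrays than most probe sets. Of the 5 that reached detection on a Cm484 array, all 5 were higher on replicate 1 than on replicate 2, by 0.45 for expB7, 1.09 for expB6, 1.31 and 2.33 for expB8 and 2.68 for expB4. expB4 reached detection on replicate 1 alone, so its gap could only lie that way, and it was not among the probe sets kept. Among probe sets kept, 41.3% were higher on Cm484 replicate 1 and 1.49% were higher there by 1 or more, with a median gap of -0.06. Among the 379 probe sets called higher in Cm484 and below detection on both F98902 arrays, 7.92% were higher on Cm484 replicate 1 by 1 or more, with a median gap of 0.03. The same 5 members differed between F98902 replicates 1 and 2 by -0.13 to 0.31. Their F98902 values were at most 5.05, and members under 5 on every array ranged over only 0.03 to 0.35. The contrast in gaps between the lines therefore cannot be separated from signal level. For these 5, the size of the difference depended on the Cm484 array more than on the F98902 array. Its direction was the same from any array, since the lines did not overlap.

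**Figure D3:**
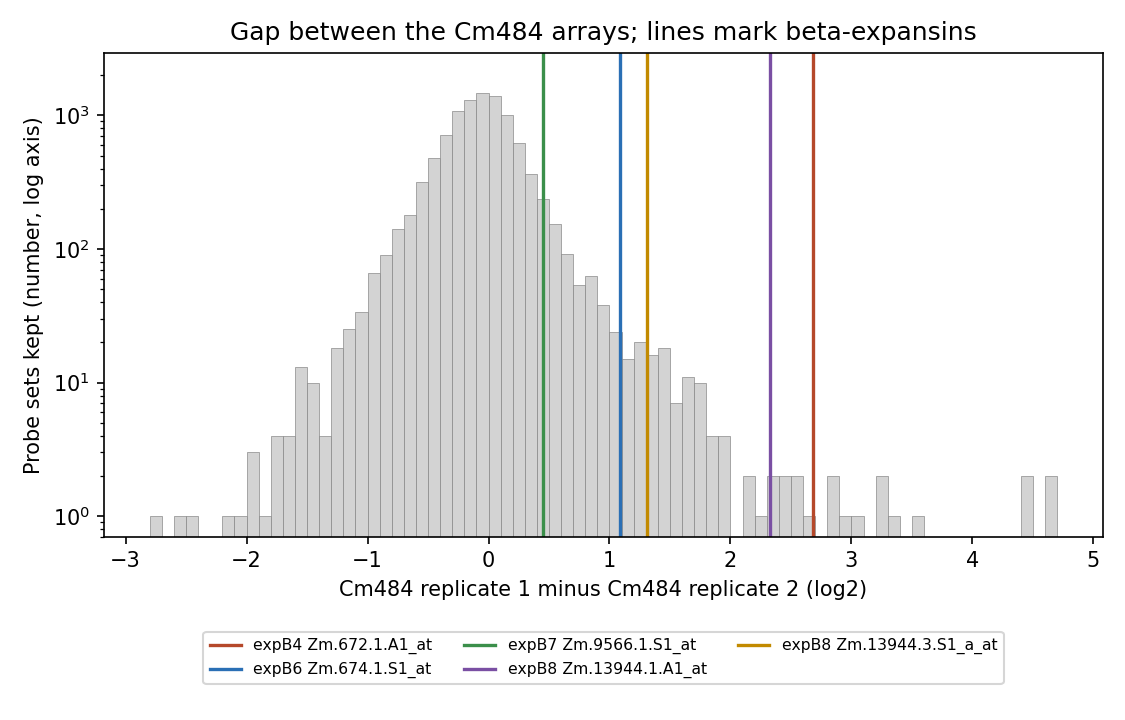
Number of probe sets kept (vertical log axis) by the gap between Cm484 replicate 1 and Cm484 replicate 2 (log2, horizontal axis, bins of 0.1). Coloured lines mark the 5 beta-expansin probe sets that reached detection on a Cm484 array, and all lie to the right of 0, between 0.45 and 2.68. expB4 is shown although it was not among the probe sets kept, and it reached detection on Cm484 replicate 1 alone.

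Other genes of wall loosening were taken by name in 5 groups, with 15 probe sets for 12 genes, of which 4 were kept. Of these 4, 3 were lower in F98902, 0 were higher by limma at an adjusted or unadjusted p under 0.05, and 1 was not called. Across all probe sets kept, 34.9% were called, 17.1% higher in Cm484. Among the 3 was glu1, a beta-glucosidase gene matched by its name alone. It passed the filter through Cm484 alone and could only be lower in F98902. Without glu1, 2 of 3 were lower in F98902, a count made after seeing the data. The alpha-expansin expa1 (LOC541904), of the expansin class most studied in dicot growth, read 6.15 and 6.30 in F98902, against 11.66 and 9.02 in Cm484. Its lines did not overlap, and its Cm484 arrays differed by 2.64 with replicate 1 higher. The difference was -4.11 ± 0.83 (SE, limma adjusted p = 0.0166) with all arrays, -2.79 when Cm484 replicate 1 was left out and -5.43 when Cm484 replicate 2 was. The call was kept in both of those fits. It was lost at -4.04 without F98902 replicate 1 (adjusted p = 0.0647), -4.19 without F98902 replicate 2 (adjusted p = 0.0649) and -4.11 with no filter (adjusted p = 0.0901).

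The alpha-expansin EXPA5 (LOC541907) read 2.84 and 2.75 in F98902, against 5.02 and 4.85 in Cm484, just short of the filter. The 3 probe sets of expA4 were below detection everywhere and leaned the other way, for example 4.82 and 4.36 in F98902, against 3.87 and 3.92 in Cm484 for the probe set 2.S1_at. Those of expa2 and expA3 stood at 2.09 or less on every array. Of the 7 alpha-expansin probe sets, 1 was therefore kept and tested, that of expa1.

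xet1 (LOC542312), a xyloglucan endotransglycosylase that cuts and rejoins wall xyloglucan, was detected well in both lines. It read 11.03 and 11.08 in F98902, against 11.84 and 11.98 in Cm484, a difference of -0.85 ± 0.16 (SE, limma adjusted p = 0.012) that was not called without Cm484 replicate 2 (adjusted p = 0.0586). The plasma membrane proton pump gene mha4 (LOC542052), whose product acidifies the wall, read 12.33 and 12.56 in F98902, against 12.11 and 12.36 in Cm484. Its lines overlapped and its difference of 0.21 was not called (limma adjusted p = 0.41), with a 95% interval of -0.24 to 0.67.

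Names of the form glu followed by a number, meant to find wall glucanases, matched the beta-glucosidase genes glu1 and glu2 instead. glu1 (LOC542414) read 2.48 and 2.54 in F98902, against 6.91 and 5.49 in Cm484, and its difference of -3.69 ± 0.46 (SE, limma adjusted p = 0.00356) is counted among the 3. It passed the filter through Cm484 alone. That difference was -2.97 when Cm484 replicate 1 was left out and -4.40 when Cm484 replicate 2 was. glu2, the pectin enzyme genes PG14 (LOC542387) and pme1 and both probe sets of the proton pump gene mha1 were below detection on all 4 arrays, none above 2.74.

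**Figure D4:**
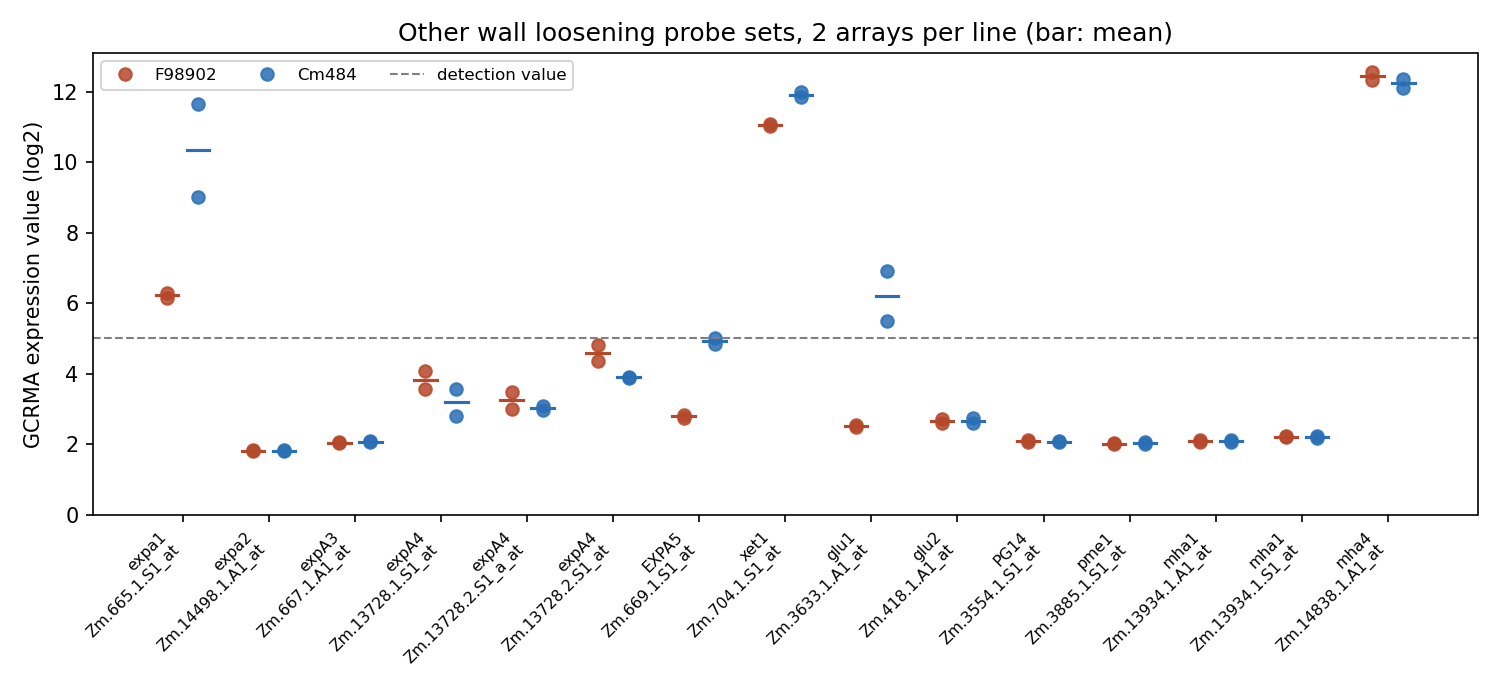
GCRMA expression value (log2, vertical axis) of the 15 probe sets of other wall loosening genes (horizontal axis) on the 2 F98902 arrays (left of each pair, red) and the 2 Cm484 arrays (right, blue), with bars at the means and a dashed line at the detection value of 5. Cm484 points lie above F98902 points for expa1, EXPA5, xet1 and glu1, and the points of mha4 overlap. The expA4 probe set 2.S1_at has the opposite order, with all its points below the line.

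Markers of other tissues were read beside these results. The pollen list held 5 profilin genes, actin-binding proteins of which PRO1 to PRO3 are made mainly in pollen. Those 3 were below detection on every array, between 2.05 and 2.69, as was EXPB9, so a pollen difference between the lines could not be read from them. PRO4 and PRO5, which are made in other tissues, were not called, and the list's summed linear signal was 13500 and 14100 in F98902, against 15900 and 14000 in Cm484.

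The root list found 1 probe set, for the root-preferential gene zrp4 (LOC542706). It read 2.34 and 2.07 in F98902, against 8.83 and 8.59 in Cm484 (-6.50 ± 0.19 SE, limma adjusted p = 5.64e-05). Like glu1, zrp4 passed the filter through Cm484 alone and could only be lower in F98902. Its values resemble those of expB7, whereas 5 beta-expansin probe sets overlapped between the lines. The green tissue list had 12 probe sets for 5 genes: 7 called higher in F98902, 1 called higher in Cm484, 2 not called and 2 not kept. Those 7 came only from PPDK, lhcb6 and psad1, and 17.7% of all probe sets kept were called in that direction. The gene lhcb5 had the opposite call (-0.94, limma adjusted p = 0.0167). Not called were rbcS (0.55, limma adjusted p = 0.0669) and the PPDK probe set 4.A1_at (0.01). Linear signal summed over all 12, which counts PPDK and lhcb6 repeatedly, was 25100 and 24100 in F98902, against 10900 and 13000 in Cm484. All 4 secondary wall probe sets (bk2, cesa10, cesa11 and CesA12) were detected in both lines, between 10.54 and 12.72, and none was called by limma (adjusted p of 0.0606 for cesa11, 0.107 for CesA12 and more for the others). At an unadjusted p under 0.05, limma counted 2, cesa11 and CesA12. Their summed linear signal was 10200 and 9700 in F98902, against 15400 and 11500 in Cm484. The part of tissue make-up in the beta-expansin differences was not tested.

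The probe sets nearest in pattern to each beta-expansin were sought among 886 probe sets kept with 1 annotated gene, by the Euclidean distance between mean-centred log2 values over the 4 arrays. With 4 arrays in 2 lines, this mainly matches the size of the line difference and the gap between replicates. Nearest to expB7 was zrp4, at a distance of 0.37, followed by PP2C (LOC542176), a protein phosphatase gene, at 0.63 and ivr2 (LOC542324), an acid invertase gene, at 0.82. Nearest to expB6 were cc7 (LOC732754), a cystatin gene, at 0.78, the plasma membrane aquaporin gene pip2b (LOC542644) at 0.85 and gar2 (LOC541620) at 0.86. For the expB8 probe set 3.S1_a_at the same 3 genes came out, with gar2 at 0.57, pip2b at 1.08 and cc7 at 1.10.

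The other expB8 probe set, 1.A1_at, had other neighbours: plt2 (LOC542343), a phospholipid transfer protein gene, at 0.52, PLTP at 0.79 and glu1 at 0.92. Among the beta-expansins themselves, expB6 and the expB8 probe set 3.S1_a_at lay 0.33 apart. That was closer than either lay to any of the 886 probe sets searched outside the family. The 2 called probe sets of expB8 lay 1.96 apart, and expB6 and expB7 lay 2.15 apart.

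**Figure D5:**
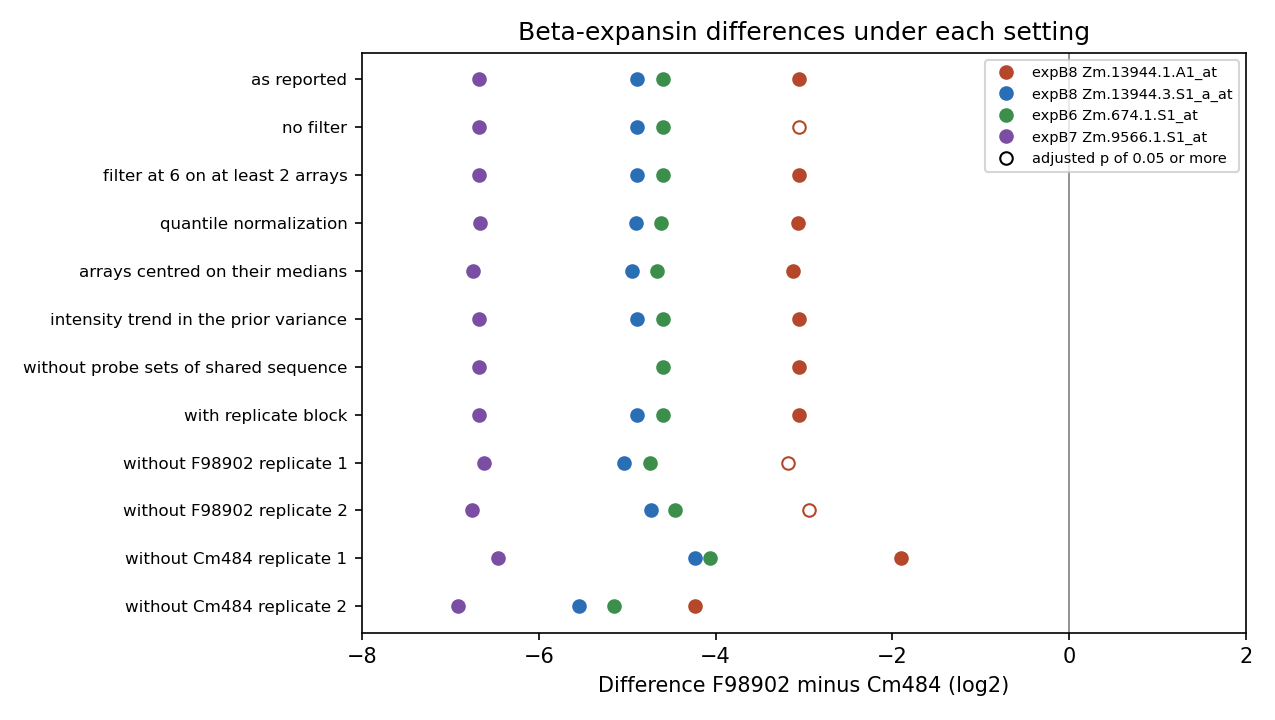
Difference F98902 minus Cm484 (log2, horizontal axis) of the 4 beta-expansin probe sets kept, under each setting (rows); filled points have an adjusted p under 0.05 and open points do not. All points lie below 0, which leaving out an array could not change since the lines did not overlap. Those of expB7 lie between -6.91 and -6.46, and the open points belong to the expB8 probe set 1.A1_at.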

How the data were processed

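The authors deposited log2 expression values, 1 column for each of 4 arrays, which the submitters' processing notes credit to GCRMA and R 2.6.2. They were used unchanged; the sources used here name no other step. From 17734 probe sets, 113 controls were removed. The platform annotation gave 1 gene for 1452, several for 1 and none for 16281, and a RefSeq gene table (Zm-B73-REFERENCE-NAM-5.0) that holds all 7 member genes supplied current names. The members and lists were chosen with earlier results of these data known.

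Probe sets reaching 5 (log2) on at least 2 of the 4 arrays, 10131 in all, entered 1 limma fit (version 3.58.1, R 4.3.3) of F98902 minus Cm484 without covariates. It had 2 residual and 3.26 prior degrees of freedom. Tests were two-sided, p-values were Benjamini-Hochberg adjusted across the fit, and "called" means an adjusted p under 0.05. Where a line had both arrays under 5, the fold is a bound, the mean of the other line over 5. Named genes were all members, the other wall loosening genes, the markers and the 3 nearest probe sets of each called member. Of these steps, only the limma fit was tested on simulated data with known differences. The number of arrays limits the precision. Alternatives concerned the filter, normalization, prior variance, shared-sequence probe sets, replicate block, detection value and single arrays.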

Additional observations from a re-analysis of the deposited data

How the results depend on the processing

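All 11 alternative settings kept the direction of the 4 beta-expansin differences wherever the probe set was fitted. The lines did not overlap for these 4, so leaving out an array or changing the filter could not turn the direction. The replicate block, the prior variance trend and the removal of shared-sequence probe sets left the fitted differences unchanged. The other normalizations moved them by far less than the gap between the lines. The kept direction is therefore no separate support. Called members numbered 4 in 7 settings and 3 in 4 settings: with no filter, without probe sets of shared sequence, without F98902 replicate 1 and without F98902 replicate 2. Under the settings, expB7 lay between -6.91 and -6.46, expB6 between -5.15 and -4.06, and the expB8 probe set 3.S1_a_at between -5.54 and -4.23, with adjusted p of at most 0.0183, each called in every setting that fitted it. Without probe sets of shared sequence, the expB8 probe set 3.S1_a_at was removed before the fit, and every member that was fitted was called. In the 4 settings that leave out an array, 1 line has a single array and the spread comes from the other line. Calls in those 4 settings assume that both lines vary alike. Leaving out 1 array at a time gave 2205 to 2706 calls among all probe sets, against 3533 with 4 arrays, and a median over the 10 members of -2.12 to -0.63, against -1.38. The bounds follow the detection value: at 6 they were 15.9-fold for expB7, 7.44-fold for expB6 and 3.94-fold for expB8, and at 4 they were 63.6-fold for expB7 and 15.8-fold for expB8, while expB6 no longer lay below detection in F98902. Replicate numbers are shared by the lines, but nothing in the labels pairs them, and the replicate deviations correlated at -0.02; with the replicate number as a block, 2983 probe sets and 4 members were called. Values under detection limit what can be said of every member. Of the 10 members, 5 were under detection on every array, and expB4 on all but Cm484 replicate 1. For expB6, expB7 and the expB8 probe set 3.S1_a_at both F98902 arrays were under detection. For the expB8 probe set 1.A1_at F98902 replicate 2 was.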

Other observations

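The 5 beta-expansin probe sets below detection on every array shared a small pattern that crosses the lines: F98902 replicate 2 and Cm484 replicate 1 read above F98902 replicate 1 and Cm484 replicate 2 in all 5. For the expB5 probe set 2.A1_at these values were 1.97 and 2.01 on F98902 replicates 1 and 2, and 2.01 and 1.97 on Cm484 replicates 1 and 2. The same order was found for 5600 of 7141 probe sets (78.4%) below detection on every array, against 6.67% of the probe sets kept. Differences of a few hundredths among such members are therefore shared with most probe sets at this level.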
